A study of Mus musculus with 23 samples.

Results

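The interferon response genes described here are 49 genes that interferons are known to switch on in many cell types. They were chosen by symbol from a list that covers transcription regulators, sensors of viral nucleic acid, antiviral effectors, antigen-processing genes and secreted proteins. All 49 were found among the 24454 genes of the count table, and all 49 passed the filter on low counts in both library protocols. They were read in 23 RNA-seq libraries of sorted mouse bone marrow cells, which fall into 8 groups. Wild-type (WT) C57BL/6 mice were set against SclCre;V617F mice, called V617F here, in which tamoxifen activates a Cre recombinase named for the blood stem cell gene Scl, and Cre turns on a V617F allele of the kinase gene Jak2. Mice of both genotypes were given tamoxifen on 5 days, with leg bones harvested for marrow 12 weeks later, so no group is free of tamoxifen. Long-term haematopoietic stem cells (LT-HSC; Lin-/Kit+/Sca-1+/CD48-/CD150+) and megakaryocyte progenitors (MkP; Lin-/Kit+/Sca-1-/CD150+/CD41+) were prepared with the SMART-Seq v2 protocol, in 3 libraries per genotype. Cells of the LT-HSC gate were also sorted by CD41 into a negative and a positive fraction, prepared with SMART-Seq v4, in 3 libraries per group except for WT CD41-positive HSC, which has 2. CD41 is the integrin chain encoded by Itga2b, a surface marker of the megakaryocyte lineage. The libraries come from female mice except all 3 V617F LT-HSC libraries and V617F number 2 of both CD41 fractions, so genotype and sex cannot be told apart in LT-HSC. For the same reason population and sex cannot be told apart between V617F LT-HSC and V617F MkP. Counts per gene do not show which cells carry the V617F base change, and the labels do not say whether the WT mice carried Cre, how old the mice were, or whether libraries of one group came from separate mice. The p-values below therefore measure the spread between these libraries.

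Interferons are secreted proteins of antiviral defence. Type I interferons bind a receptor made of IFNAR1 and IFNAR2, whose kinases JAK1 and TYK2 activate transcription factors of the STAT family. Such factors join IRF9 and bind the interferon-stimulated response element (ISRE) upstream of target genes. Interferon gamma acts through JAK1 and JAK2, the kinase that carries V617F in these mice, and leads to binding of STAT dimers at the gamma-activated site (GAS). Blood stem cells are known to hold transcripts of some interferon response genes without infection, and interferon is known to push resting stem cells into division.

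The letters of the 2 elements are shown here as background. The genes were chosen as known targets of interferon, so a raised share of these elements goes with the choice and is not a separate result. RefSeq promoter windows (GRCm38.p6, the assembly known as mm10, the build in the submitters' processing notes) were found for 38 of the 49 genes. No entry was matched for Dhx58, Ifi27, Mx1, Mx2, Oas2, Parp14, Parp9, Rtp4, Tap2, Usp18 and Zbp1. The ISRE core GAAANNGAAA was searched on both strands in the 250 bases before each start, and the GAS core TTCNNNGAA, which reads the same on both strands, in the same bases. The ISRE core was present in 10 of the 38 windows (26.3%) against 936 of the 27025 genes of the promoter table (3.46%). The GAS core was present in 7 of 38 (18.4%) against 8.13% of all genes, and 2 of the genes, Bst2 and Oas1a, held both. These are matches of letters and not measured binding. The stretches below are for 4 genes that fell in the CD41-positive fraction of V617F mice (Ifit1, Oas3, Rsad2 and Trim30a) and 2 that did not pass the test in any comparison (Isg15 and Bst2). Each is written 5′ to 3′ on the strand of the gene, all of it upstream of the annotated start, with ISRE cores in capitals, which merge where cores overlap.

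Ifit1 (chr19:34640769-34640848, plus strand): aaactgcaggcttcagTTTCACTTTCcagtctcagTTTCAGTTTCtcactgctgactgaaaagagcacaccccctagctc
Oas3 (chr5:120777690-120777769, minus strand): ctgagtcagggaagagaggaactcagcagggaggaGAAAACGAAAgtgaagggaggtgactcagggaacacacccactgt
Rsad2 (chr12:26456528-26456607, minus strand): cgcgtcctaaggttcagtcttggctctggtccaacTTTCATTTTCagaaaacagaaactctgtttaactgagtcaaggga
Trim30a (chr7:104465194-104465264, minus strand): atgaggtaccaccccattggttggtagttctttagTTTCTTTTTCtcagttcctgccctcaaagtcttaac
Isg15 (chr4:156200840-156200919, minus strand): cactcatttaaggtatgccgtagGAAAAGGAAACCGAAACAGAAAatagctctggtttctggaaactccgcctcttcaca
Bst2 (chr8:71537552-71537631, minus strand): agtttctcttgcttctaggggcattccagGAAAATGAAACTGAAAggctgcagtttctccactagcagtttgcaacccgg

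Ifit1 held 2 cores written on the opposite strand, 104 and 85 bases before its start, and Isg15 held 3 overlapping cores between 78 and 66 bases before its start. In V617F mice the 10 genes with an ISRE core had a median log2 change of -0.62 between the CD41-positive and CD41-negative fractions, and the 28 matched genes without one had a median of -0.36. In WT mice these medians were -0.24 and -0.26. These medians were not tested against each other.

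Levels per length set the scale for the rest. On CPM (counts per 1e6 counts, with library totals scaled by TMM) divided by gene length in kilobases (RPKM), Ifitm3 led both protocols, followed by Ifitm1 and Ifitm2, 3 membrane proteins that block virus entry. In CD41-negative HSC Ifitm3 stood at 1097 ± 232 RPKM in WT (SD, n = 3) and 899 ± 77.9 RPKM in V617F (SD, n = 3). Psmb8 and Psmb9, immunoproteasome subunits that cut proteins into peptides for display, came next in the CD41 fractions, whereas Psmb8 and Lgals3bp, a secreted glycoprotein, came next in the LT-HSC and MkP libraries. At the bottom, the dynamin-like antiviral GTPase gene Mx1 stood at 0.2401 ± 0.195 RPKM in V617F CD41-positive HSC (SD, n = 3), and its relative Mx2 was lowest in the LT-HSC and MkP libraries. Across the 11 libraries of the CD41 fractions the highest library of a gene was a median of 2.34 times the lowest. For 18 of the 49 genes this ratio was under 2, and for 9 it was over 5. Across the 12 LT-HSC and MkP libraries the median ratio was 10.1, and 7 genes were listed at 0 in at least 1 library.

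**Figure D1:**
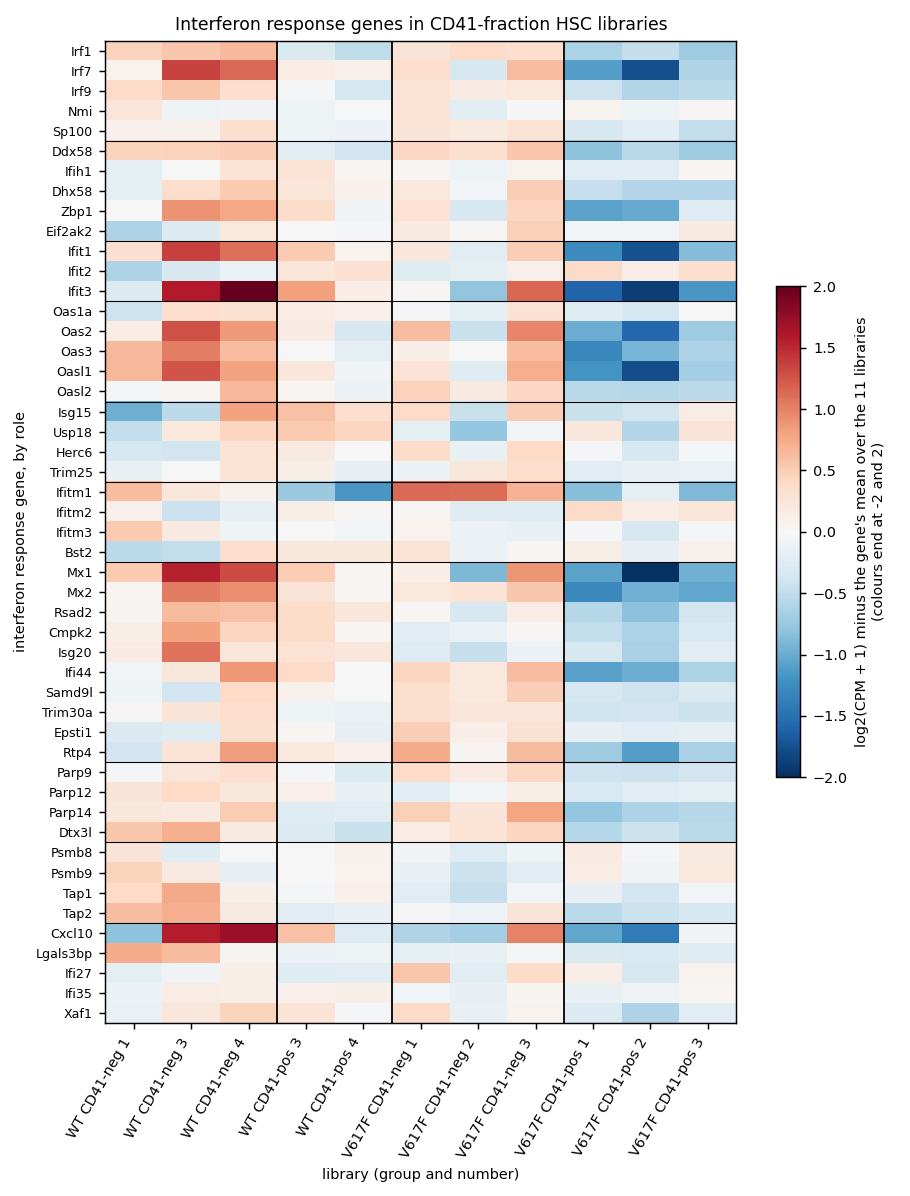
Levels of the 49 interferon response genes in the 11 libraries of the CD41 fractions. Rows are genes by role, columns are libraries by group, and colour is log2(CPM + 1) minus the mean of that gene over the 11 libraries, with colours ending at -2 and 2. Blue, for low, fills most rows of the 3 V617F CD41-positive columns, and Ifit2 and Ifitm2 are exceptions.

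Libraries differed in ways that touch these genes. Total counts ran in units of 1e6 from 17.6 to 28.5 in the CD41 fractions and from 17.6 to 49.2 in LT-HSC and MkP. In the V617F CD41-negative group, number 2, from a male mouse, was the lowest of the 3 libraries for 37 of the 49 genes, and in the CD41-positive group for 31, while number 3 was the highest for 34 and 32. WT CD41-negative number 1 was the lowest of its group for 32 genes, and WT CD41-positive number 3 was the higher of its pair for 39. WT LT-HSC number 30 stood apart, with 18108 CPM summed over the 49 genes against 7885 and 8230 in the other 2 libraries. Yet it was the lowest of its group for 25 of the 49 genes and the highest for 21. Its stem cell markers summed to 1704 CPM against 4497 and 3986 CPM in numbers 31 and 32. Its lymphocyte markers summed to 1138 CPM against 156 and 210 CPM, and its erythroid markers to 6655 CPM against 1622 and 3278 CPM. Stem cell markers (9 genes, none at 0) summed to between 3385 and 3766 CPM in V617F CD41-negative HSC and to between 1960 and 2347 CPM in CD41-positive HSC, and in WT to between 4302 and 6937 CPM and between 2878 and 2886 CPM. Megakaryocyte markers (8 genes, of which Gp6 was at 0 in all 11 libraries) summed to between 219 and 276 CPM and between 1245 and 2040 CPM in the V617F fractions, and in WT to between 358 and 513 CPM and between 2068 and 2256 CPM. Markers of plasmacytoid dendritic cells, a main source of type I interferon (8 genes), summed to between 202 and 212 CPM and between 147 and 167 CPM in the V617F fractions, and in WT to between 216 and 228 CPM and between 150.4 and 170.01 CPM. Of the 4 that were tested, Runx2 and Pacsin1 were lower in the CD41-positive fraction of V617F and Runx2 and Tcf4 in that of WT. Klk1 was at 0 in all 23 libraries and Siglech had at most 3 counts in any of the 11 libraries of the CD41 fractions. There Cox6a2, Ly6d, Ccr9 and Pacsin1 had at most 2, 6, 12 and 50 counts, while Runx2 and Tcf4 reached 2209 and 3865. The sums of this list therefore come mostly from Runx2 and Tcf4. The part of these other cell markers in the results below was not tested. In bulk libraries, fewer cells that make a transcript and less of it per cell cannot be told apart.

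In V617F mice, interferon response genes were lower in the CD41-positive than in the CD41-negative fraction of stem cells. At an adjusted p under 0.05 (edgeR's quasi-likelihood test, Benjamini-Hochberg over 14467 genes), 26 of the 49 were lower and 2 were higher, where 17.9% of all tested genes were lower and 16.4% higher. The median log2 change of the 49 was -0.56, with 43 negative. The CD41-positive libraries all lay below the CD41-negative ones for 29 genes and all above for 4, against 27.7% and 28.4% of all genes. In WT mice 10 of the 49 were lower and 1 higher (18.2% and 15.7% of all genes), the median log2 change was -0.28 with 37 negative, and 17 genes had groups that did not overlap downwards and 1 upwards (29.3% and 27.4% of all genes). In this fit the shares lower in WT were therefore near those of all genes. Of the genes lower in WT, 9 were also lower in V617F (90% of the WT list and 34.6% of the V617F list), and the 1 exception was Lgals3bp. The share of all genes lower in both genotypes was not counted. The log2 change was more negative in V617F for 37 of the 49 genes, Ifit2, which rose in both genotypes, included, but the difference between the genotypes, tested below, passed for none of them.

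The transcription regulators fell together in V617F, with 4 of 5 lower. Irf1, a transcription factor that interferon gamma induces, stood at 216, 235 and 227 CPM in V617F CD41-negative HSC 1, 2 and 3, and at 115, 128 and 109.5 CPM in CD41-positive HSC 1, 2 and 3 (log2 -0.94 ± 0.11, adjusted p = 6.49e-05; ± is the SE throughout). In WT the values were 245, 259.9 and 281 CPM in CD41-negative HSC 1, 3 and 4 and 146 and 126 CPM in CD41-positive HSC 3 and 4 (log2 -0.95 ± 0.13, adjusted p = 0.000314). Every CD41-positive library was below every CD41-negative one in both genotypes. Irf9, a DNA-binding subunit of the complex that binds the ISRE, went from 189.6, 176 and 181 CPM to 117, 104 and 109 CPM in V617F (log2 -0.73 ± 0.11, adjusted p = 0.000452) and from 205, 231 and 199 CPM to 153 and 123 CPM in WT (log2 -0.62 ± 0.13, adjusted p = 0.00442), again with no overlap. Irf7, which amplifies type I interferon production, also fell in V617F (log2 -1.39, adjusted p = 0.00936), from 52.3, 32.3 and 63.2 CPM to 18.6, 11.3 and 26.7 CPM, while in WT its fall of the same sign missed the threshold (log2 -0.84, adjusted p = 0.114). Sp100, a nuclear body protein, fell in V617F (log2 -0.59). The remaining regulator, Nmi, had values of 75.97, 53.8 and 61.96 CPM and 65.5, 59.02 and 63.5 CPM, with the fractions overlapping (log2 -0.03, adjusted p = 0.9000).

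Among the nucleic acid sensors, Ddx58, which encodes the RNA sensor RIG-I, had the smallest adjusted p of all 49 genes. Its levels were 157, 147 and 173 CPM in V617F CD41-negative HSC and 66.97, 79.9 and 71.03 CPM in CD41-positive HSC (log2 -1.13 ± 0.11, adjusted p = 1.72e-05). In WT they were 159.7, 162 and 165 CPM and 100.2 and 89.6 CPM (log2 -0.77 ± 0.12, adjusted p = 0.000857). The fractions did not overlap in either genotype, and the 2 WT CD41-positive libraries lay above the 3 V617F ones. In V617F the relative of RIG-I encoded by Dhx58 (log2 -0.80) and the Z-form nucleic acid sensor Zbp1 (log2 -0.95) were also lower. The RNA sensor Ifih1 (MDA5) had a log2 change of -0.13 and the RNA-activated kinase Eif2ak2 (PKR) one of -0.21, neither past the threshold.

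The 3 IFIT genes, whose proteins bind foreign RNA ends, did not move in one direction although they lie on the same chromosome (Ifit2 at chr19:34550550-34576534, Ifit3 at chr19:34583119-34588982 and Ifit1 at chr19:34640889-34650009 of GRCm38.p6). Ifit1 fell from 41.8, 30.4 and 50.3 CPM to 14.2, 9.92 and 19.03 CPM in V617F (log2 -1.51 ± 0.29, adjusted p = 0.00193). Ifit3 fell from 6.65, 3.37 and 15.7 CPM to 1.48, 1.05 and 2.34 CPM (log2 -2.40 ± 0.66, adjusted p = 0.0135). Ifit2, in contrast, rose from 61.4, 63.1 and 77.6 CPM to 95.2, 79.96 and 91.7 CPM (log2 0.40 ± 0.14, adjusted p = 0.0421). It also rose in WT, from 47.2, 58.1 and 66.3 CPM to 85.8 and 90.2 CPM (log2 0.62 ± 0.16, adjusted p = 0.0105), and was the 1 gene of the 49 to do so there. The Ifit2 call was lost in V617F without CD41-negative number 1 or 2 or CD41-positive number 1 or 3 (adjusted p up to 0.144), and in WT without either CD41-positive library (up to 0.0899). For all 3 the V617F fractions did not overlap. In WT, Ifit1 (log2 -0.69) and Ifit3 (log2 -0.93) missed the threshold, and WT CD41-negative number 1 was the low library of its group for both. Ifit3 has a near-identical neighbour, Ifit3b, so its counts may be split between the copies. The OAS, IFITM and MX genes also belong to families of similar sequence.

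The OAS family makes or resembles enzymes that sense double-stranded RNA and activate RNase L. In V617F, 4 of the 5 were lower in CD41-positive HSC. Oas3 stood at 34.4, 30.8 and 48.5 CPM in the CD41-negative and 11.96, 15.9 and 19.9 CPM in the CD41-positive libraries (log2 -1.25 ± 0.21, adjusted p = 0.000822). In WT it stood at 49.1, 64.6 and 48.5 CPM and 31.4 and 27.3 CPM (log2 -0.88 ± 0.24, adjusted p = 0.0152), so the fractions were separate in both genotypes. Oasl2 fell from 188, 153 and 182 CPM to 92.6, 91.02 and 94.8 CPM in V617F (log2 -0.91 ± 0.17, adjusted p = 0.001203), while its WT fractions overlapped (log2 -0.29, adjusted p = 0.237). Oasl1 (log2 -1.65) and Oas2 (log2 -1.67) were lower in V617F too, and Oas1a (log2 -0.24) did not pass the test. The ISG15 system, a ubiquitin-like modifier and its enzymes, had no called member in either genotype. Isg15 itself stood at 13.7, 7.28 and 14.9 CPM and 7.23, 7.73 and 11.4 CPM in the V617F fractions (adjusted p = 0.451), and these overlapped. Its protease gene Usp18 (log2 0.33) and the ligase genes Herc6 (log2 -0.35) and Trim25 (log2 -0.33) were not called.

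The membrane restriction factors split. Ifitm1 fell from 933, 928 and 690.3 CPM to 235, 372 and 229.9 CPM in V617F (log2 -1.61 ± 0.22, adjusted p = 0.000199) and from 651, 496 and 451 CPM to 254 and 189 CPM in WT (log2 -1.27 ± 0.25, adjusted p = 0.003602). Its neighbour Ifitm2 rose in V617F, from 302, 251 and 250.5 CPM to 387, 329 and 352 CPM (log2 0.41 ± 0.15, adjusted p = 0.0441), and had a log2 change of 0.23 in WT (adjusted p = 0.283). The Ifitm2 call was lost without any 1 of the V617F libraries except CD41-negative number 1 (adjusted p up to 0.157). These 2 genes sit close together (Ifitm2 at chr7:140954837-140959686 and Ifitm1 at chr7:140967429-140969827). Ifitm3, the third of the cluster, overlapped between the fractions in both genotypes (log2 -0.06 in V617F and -0.25 in WT). Bst2, the tether that holds budding virus on the cell, had log2 changes of -0.05 and 0.39, both within the overlap of the libraries.

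Of the 10 other antiviral effectors, 8 were lower in V617F and 1 in WT. Mx2 dropped from 5.19, 5.49 and 6.78 CPM to 1.196, 1.74 and 1.59 CPM in V617F (log2 -1.94 ± 0.31, adjusted p = 0.000539), and Ifi44 from 88.6, 75.7 and 101 CPM to 30.3, 32.5 and 41.8 CPM (log2 -1.34 ± 0.22, adjusted p = 0.000678). Both sets of V617F fractions were separate, whereas in WT both genes overlapped (log2 -0.68 for Mx2 and -0.20 for Ifi44). Trim30a, a gene of the TRIM family, was the effector lower in both genotypes. It went from 115, 109.6 and 109 CPM to 69.6, 70.1 and 68.3 CPM in V617F (log2 -0.68 ± 0.10, adjusted p = 0.000383) and from 93.5, 110.5 and 118 CPM to 86.8 and 83.9 CPM in WT (log2 -0.33 ± 0.12, adjusted p = 0.0452). Mx1 was sparse, at 3.53, 1.21 and 6.64 CPM and 0.968, 0.0498 and 1.13 CPM (log2 -2.41, adjusted p = 0.0176), with the lowest value in number 2 of both fractions, and CD41-positive number 2 held fewer than 3 counts. Rtp4, Samd9l, Epsti1 and Rsad2 (viperin, an enzyme that makes a chain-terminating nucleotide) fell by log2 1.35, 0.70, 0.52 and 0.56 in V617F. Cmpk2, the kinase gene next to Rsad2, and the exonuclease gene Isg20 were not called.

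**Figure D2:**
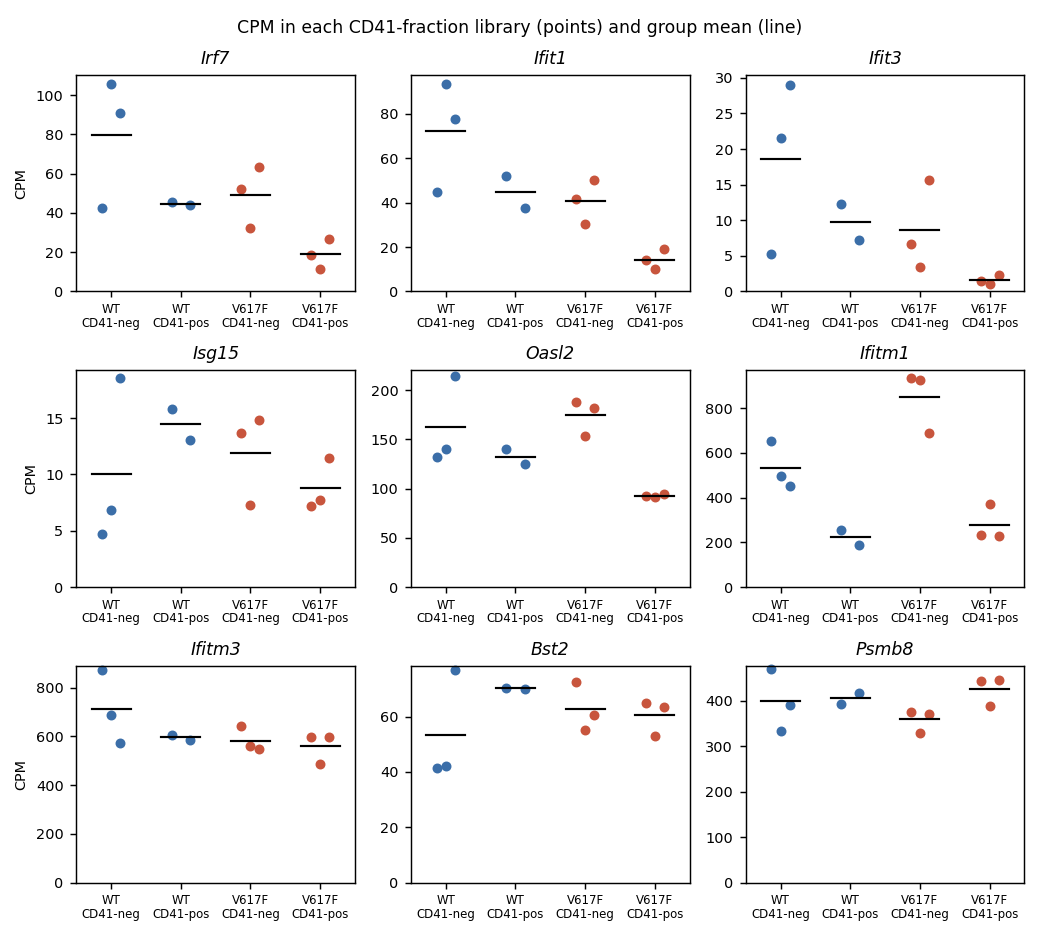
Level in CPM of 9 interferon response genes in each library of the CD41 fractions, on linear axes from 0. Points are libraries (blue WT, red V617F) and lines are group means. Irf7, Ifit1, Ifit3 and Oasl2 are lowest in V617F CD41-positive HSC, Ifitm1 is low in the CD41-positive libraries of both genotypes, and the groups of Isg15, Ifitm3 and Bst2 overlap.

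PARP9 and DTX3L form a complex of an ADP-ribosyltransferase and a ubiquitin ligase, and PARP14 is a relative of PARP9. All 3 genes were lower in V617F, Parp14 from 73.8, 63.3 and 92.00 CPM to 30.2, 34.05 and 35.02 CPM (log2 -1.21 ± 0.15, adjusted p = 8.54e-05), Dtx3l by log2 0.81 and Parp9 by log2 0.74 (adjusted p = 0.000793 and 0.000658). In WT, Parp14 (log2 -0.57 ± 0.17, adjusted p = 0.0203) and Dtx3l (log2 -0.85 ± 0.16, adjusted p = 0.00235) were lower and Parp9 missed the threshold (adjusted p = 0.0661), with all 3 showing separate fractions. Parp12 was not called in either. The antigen-processing genes lie together on chromosome 17 (chr17:34182030-34216321, from Psmb9 to Tap2), and of these Tap2, a chain of the peptide transporter, was lower in both genotypes, from 351, 334 and 432 CPM to 246, 266 and 288 CPM in V617F (log2 -0.48 ± 0.16, adjusted p = 0.0307) and from 551, 597 and 407 CPM to 309.7 and 323 CPM in WT (log2 -0.71 ± 0.18, adjusted p = 0.0104). Psmb8 and Psmb9 had positive log2 changes in V617F (0.25 and 0.37) with every CD41-positive library above every CD41-negative one, but missed the threshold, and Tap1 stood at a log2 change of 0.04. Among the secreted and other proteins none was called in V617F. Lgals3bp was lower in WT, from 614, 566 and 377 CPM to 335 and 339 CPM (log2 -0.62 ± 0.18, adjusted p = 0.0199). The chemokine gene Cxcl10 (log2 -1.16), Ifi27 (-0.30), Ifi35 (-0.01) and Xaf1 (-0.49) complete this group in V617F.

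V617F libraries of the same number in the 2 fractions deviated together, so the fit with the number as a block is given beside this result. It called 32 of the 49 (65.3%, against 39.9% of all genes), 29 lower and 3 higher. It added Cmpk2 (adjusted p = 0.0177), Xaf1 (0.0243) and Cxcl10 (0.0173) as lower and Psmb9 (0.0247) as higher. Leaving out 1 library at a time, the V617F count lay between 21 and 28. These were 42.9% to 57.1% of the 49, where 23.4% to 32.7% of all genes were called. Of the 28 calls, 20 held with each V617F library left out in turn. Epsti1 and Tap2 were each lost with 5 of the 6 libraries, Rsad2 and Zbp1 with 4, Ifit3 without CD41-negative number 3 or CD41-positive number 1, and Mx1 without CD41-negative number 3. The WT count lay between 2 and 15 and was 2, Irf1 and Ddx58, without CD41-positive number 4 and 5 without number 3. These WT counts were 4.08% to 30.6% of the 49, where 8.18% to 49.2% of all genes were called. Trim30a in WT was lost with 4 of the 5 libraries.

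**Figure D3:**
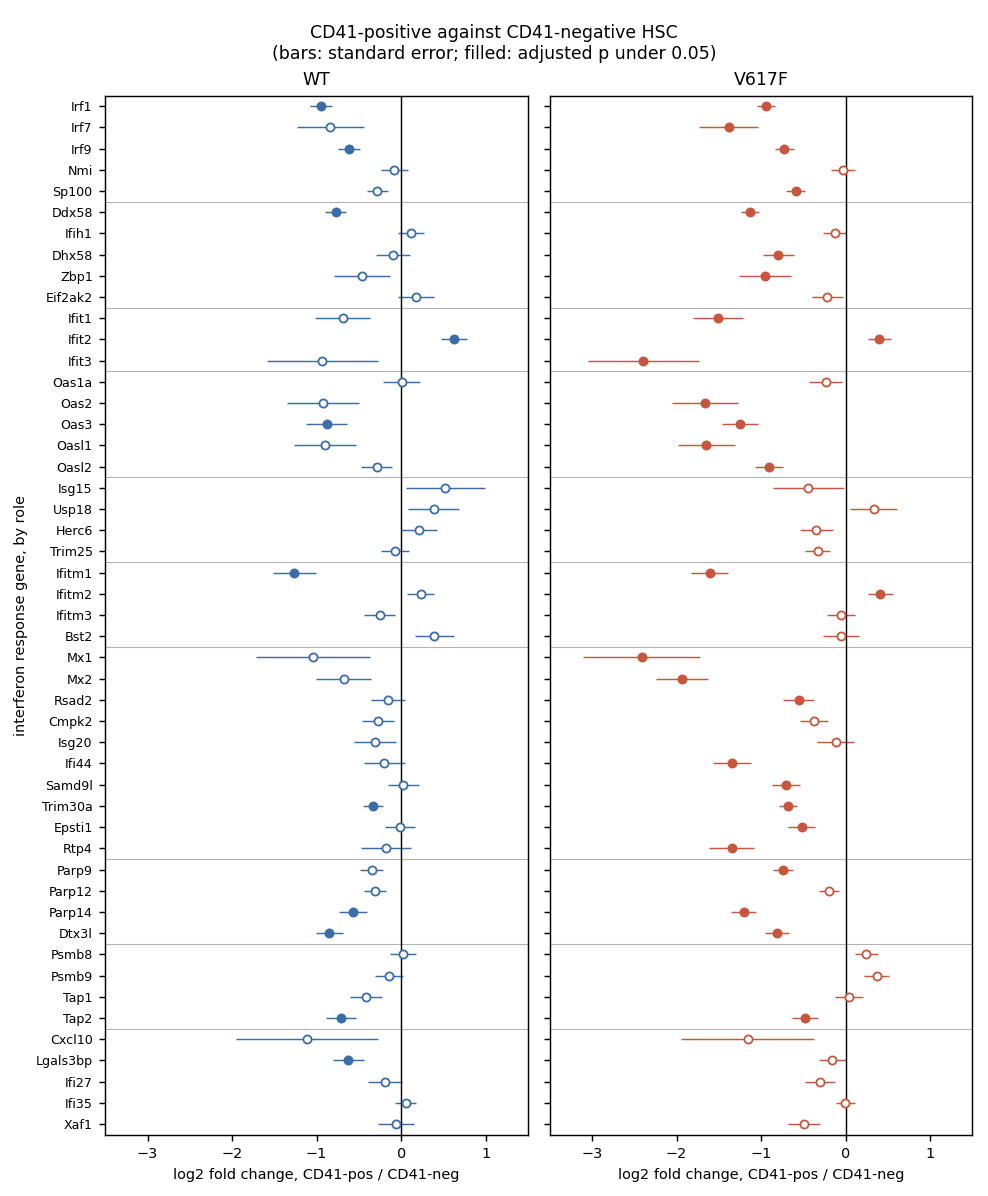
Log2 change from CD41-negative to CD41-positive HSC for each of the 49 genes, with WT on the left, V617F on the right, and lines between roles. Points are edgeR estimates, bars are the SE, and filled points have an adjusted p under 0.05. There are 11 filled points in WT and 28 in V617F, with Ifit2 to the right of 0 in both.

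The genotypes were then compared within each fraction. In CD41-positive HSC, 3 of the 49 genes were lower in V617F than in WT mice and none was higher, where 0.94% of all tested genes were lower and 0.221% higher (edgeR, adjusted over 14467 genes). Ifit1 stood at 14.2, 9.92 and 19.03 CPM in V617F 1, 2 and 3 against 51.8 and 37.4 CPM in WT 3 and 4 (log2 -1.63 ± 0.32, adjusted p = 0.0293). Mx2 stood at 1.196, 1.74 and 1.59 CPM against 5.38 and 4.44 CPM (log2 -1.69 ± 0.34, adjusted p = 0.0324). Ifi44 stood at 30.3, 32.5 and 41.8 CPM against 85.01 and 65.96 CPM (log2 -1.11 ± 0.24, adjusted p = 0.0481). For each the 3 V617F libraries were below both WT libraries. The next smallest adjusted p belonged to Rsad2, at 29.4, 24.8 and 34.3 CPM against 57.7 and 51.7 CPM (log2 -0.89 ± 0.20, adjusted p = 0.0558), which did not pass.

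Below that threshold most of the 49 leaned the same way. The median log2 change was -0.32 with 41 negative, where 55.0% of all genes were positive. Every V617F library was below both WT libraries for 36 of the 49 genes and above for 1, Ifitm2, against 17.8% and 23.9% of all genes, and 22 genes had an unadjusted p under 0.05. The other antiviral effectors were negative in 10 of 10 and had 9 of those unadjusted values. The share of all genes under the unadjusted cut-off was not counted, so these 2 counts have no background. The OAS genes were negative in 5 of 5, among them Oas3 (11.96, 15.9 and 19.9 CPM against 31.4 and 27.3 CPM, adjusted p = 0.111). Irf7 was at 18.6, 11.3 and 26.7 CPM against 45.5 and 43.9 CPM (log2 -1.24, adjusted p = 0.189), and Ifit3 at 1.48, 1.05 and 2.34 CPM against 12.3 and 7.24 CPM (log2 -2.58, adjusted p = 0.125). In both genes the highest V617F library was number 3, still under the lower WT library. Ifit2 (log2 0.01), Psmb8 (log2 0.07), Psmb9 (log2 0.07), Nmi (log2 0.05) and Eif2ak2 (log2 0.04) were near 0. The 3 calls depended on single libraries: 0 remained without either WT library, without V617F number 1 or without number 2 (the male mouse), and 1 without number 3. Fitted on these 2 groups alone, 14 genes were lower (28.6% of the 49, where 3.78% of all genes were called). DESeq2 called 10 lower (20.4%, where 2.89% of all genes were called).

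In CD41-negative HSC the genes called were different ones. Here 4 of 49 were lower in V617F and none higher, against 7.94% of all genes lower and 5.48% higher, so the share of these genes was near that of all genes. Tap1, a chain of the peptide transporter, stood at 251, 214 and 284 CPM in V617F against 384, 499.9 and 318 CPM in WT (log2 -0.68 ± 0.17, adjusted p = 0.0284). Lgals3bp stood at 319, 330.1 and 357 CPM against 614, 566 and 377 CPM (log2 -0.63 ± 0.16, adjusted p = 0.0297). Isg20 stood at 37.00, 31.9 and 40.7 CPM against 49.9, 94.7 and 52.6 CPM (log2 -0.85 ± 0.22, adjusted p = 0.0314). In each of the 3 the V617F libraries were all below the WT ones, by a narrow gap for Lgals3bp. Cmpk2, a nucleotide kinase gene, stood at 57.2, 60.3 and 67.04 CPM against 72.1, 117 and 89.9 CPM (log2 -0.60 ± 0.17, adjusted p = 0.0404), also without overlap. The median log2 change of the 49 was -0.11, with 31 negative. Ifit1 (log2 -0.82, adjusted p = 0.0667) and Ifitm1, which leaned upwards (log2 0.67, adjusted p = 0.0559), came close to the threshold, while Ifi44 (0.03), Ddx58 (-0.03) and Ifitm2 (0.00) were near 0. Granulocyte markers summed to 580 CPM in WT number 1 and to between 114 and 166 CPM in the other 2 WT libraries. Between the genotypes 4 of 7 erythroid markers and 3 of 7 tested megakaryocyte markers were lower in V617F, and of 10 monocyte and macrophage markers 4 were lower and 1 higher. The part of these markers in the calls was not tested. No call remained without WT number 3 or without any 1 of the V617F libraries, and 0 were made on these 2 groups alone. Without WT number 4 the count was 17 (9 lower and 8 higher) of 6021 genes called in all, or 34.7% of the 49 against 41.8% of all genes. With WT number 1 omitted it was 4 (8.16%, against 4.32% of all genes), but not the same 4. The calls of Tap1 and Lgals3bp were lost without that library.

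**Figure D4:**
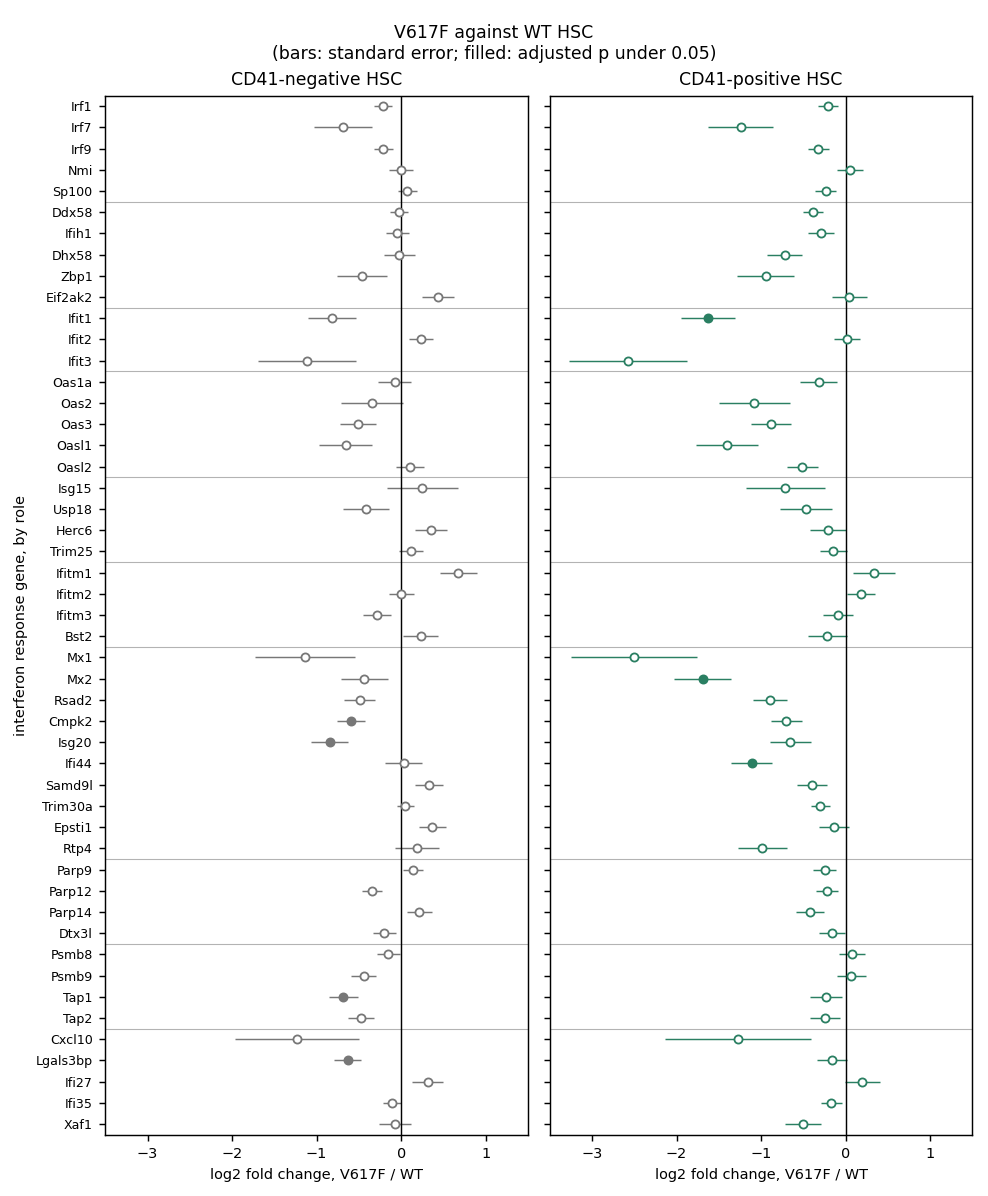
Log2 change from WT to V617F for each of the 49 genes, with CD41-negative HSC on the left, CD41-positive HSC on the right, and lines between roles. Points are edgeR estimates, bars are the SE, and filled points have an adjusted p under 0.05. In CD41-positive HSC 41 points lie left of 0, with Ifit1, Mx2 and Ifi44 filled.

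Whether the genotype change differed between the fractions was tested directly. None of the 49 passed (edgeR; smallest adjusted p = 0.566), and 0% of all 14467 genes did. At an unadjusted p under 0.05 there were 10 of the 49, a cut-off at which the share of all genes was not counted, and DESeq2 called 0. The change was more negative in the CD41-positive fraction for 37 of the 49 genes, with a median difference of -0.35. By role the 3 IFIT genes, the 5 OAS genes and the 4 of the ISG15 system all had negative differences, and the 4 antigen-processing genes all had positive ones. Leaving out WT CD41-negative number 4 gave 12 calls, 10 negative and 2 positive, among 1766 genes (24.5% of the 49 and 12.3% of all genes). A larger loss in one fraction is therefore not shown for any single gene with all libraries in the fit.

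In whole LT-HSC no interferon response gene differed between V617F and WT mice (edgeR, 0 of 49, where 0.063% of 14281 genes were called). DESeq2, which gave a p for 46, called 1 (2.17%, where 4.28% of all genes were called). With edgeR 5 had an unadjusted p under 0.05, and the share of all genes under that cut-off was not counted. The smallest adjusted p was that of Parp12, at 34.9, 17.9 and 30.6 CPM in V617F 6, 7 and 8 and 9.36, 6.85 and 8.58 CPM in WT 30, 31 and 32 (log2 1.75 ± 0.57, adjusted p = 0.221). Trim30a was at 78.1, 92.2 and 105 CPM and 25.1, 28.6 and 72.5 CPM (adjusted p = 0.3103), Lgals3bp at 508, 654 and 472 CPM and 890.1, 977 and 840.3 CPM (adjusted p = 0.3299), and Usp18 at 25.4, 41.6 and 34.6 CPM and 173, 30.1 and 100.01 CPM (adjusted p = 0.391). The V617F libraries were above all WT libraries for the first 2 of these genes and below for Lgals3bp. The median log2 change of the 49 was -0.69, and -0.22 without WT number 30, whose Ifitm3 level was 3752 CPM against 574 and 1055 CPM in the other 2 WT libraries. Granulocyte markers summed to between 3746 and 6863 CPM in WT and between 475 and 1177 CPM in V617F LT-HSC, and 12876 to 13805 genes had counts in the WT libraries against 15298 to 15697 in V617F. The part of either in these values was not tested.

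In MkP 1 gene of the 49, Ifit3, was higher in V617F than in WT mice, where 1.62% of all genes were higher and 0.126% lower. The share of the 49 that was higher (2.04%) was near that of all genes. Ifit3 was listed at 0 in all 3 WT libraries and stood at 1.203, 0.739 and 2.13 CPM in V617F 1, 2 and 3 (edgeR, adjusted p = 0.00964), at least 16.4-fold higher when the WT libraries are set at a floor of 3 counts each. Cxcl10, also at 0 in WT MkP, was at 0, 0.4804 and 1.45 CPM in V617F (adjusted p = 0.0905) and did not pass. Parp12 leaned upwards here as in LT-HSC, at 31.8, 27.8 and 20.02 CPM against 7.11, 3.51 and 5.58 CPM (log2 2.30 ± 0.58, adjusted p = 0.0696), with no overlap of the libraries. Tap1 leaned the other way, at 190.1, 226 and 157 CPM against 379, 344 and 523 CPM (log2 -1.12 ± 0.45, adjusted p = 0.229). The median log2 change of the 49 was -0.05. Fewer genes had counts in the WT MkP libraries (11483 to 12463) than in the V617F ones (14634 to 15167) while total counts were 30.9 to 41.1 (units of 1e6) in WT and 22.1 to 33.8 in V617F, and granulocyte markers summed to between 8334 and 12299 CPM in WT against 1131 to 2575 CPM. Whether either bears on the WT zeros was not tested. Without WT number 31, 3 genes were higher (6.12% of the 49, where 2.19% of all genes were called).

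MkP were then set against LT-HSC within each genotype. In WT mice 7 of the 49 genes were lower in MkP and none higher, against 6.58% of all genes lower and 2.32% higher, and the median log2 change was -1.12 with 44 negative. The WT MkP libraries were all below the LT-HSC ones for 20 genes and above for 0 (12.1% and 8.39% of all genes). Ifitm1 stood at 3749, 677 and 1004 CPM in WT LT-HSC and 67.5, 91.1 and 95.2 CPM in WT MkP (log2 -4.42 ± 0.64, adjusted p = 0.00177). In V617F it stood at 2056, 2595 and 1351 CPM and 111, 99.1 and 202 CPM (log2 -3.87 ± 0.62, adjusted p = 0.0104). The populations were far apart in both genotypes, and Ifitm1 was the 1 gene called in V617F, where 0.714% of all genes were lower and 0.378% higher.

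The other WT calls cover several roles. Irf1 was at 79.6, 227 and 206 CPM in LT-HSC and 9.31, 49.3 and 10.5 CPM in MkP (log2 -2.89 ± 0.62, adjusted p = 0.0158), and Nmi at 346, 53.4 and 75.7 CPM and 35.3, 23.6 and 35.1 CPM (log2 -2.34 ± 0.61, adjusted p = 0.0342). Lgals3bp was at 890.1, 977 and 840.3 CPM and 384, 476 and 241 CPM (log2 -1.30 ± 0.30, adjusted p = 0.0217). These 3 had separate populations, whereas Oasl2, at 56.8, 177 and 205 CPM and 60.02, 52.03 and 24.7 CPM (log2 -1.68 ± 0.47, adjusted p = 0.0442), overlapped, with LT-HSC number 30 the low library of its group. Ifit3 and Cxcl10 were listed at 0 in WT MkP, with LT-HSC levels of 25.9, 22.5 and 38.9 CPM and 7.04, 2.75 and 2.91 CPM (adjusted p = 0.0006003 and 0.0217). At a floor of 3 counts per library they were at least 351-fold and at least 51.1-fold lower. The calls of Nmi and Oasl2 were each lost without any of 4 single WT libraries, and that of Lgals3bp without MkP number 32. The count was 13 without WT LT-HSC number 31 (26.5%, against 9.86% of all genes) and lay between 5 and 10 with any other 1 library omitted. It was 0 on the 2 WT groups alone and 19 by DESeq2 (41.3%, against 21.2% of all genes).

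In V617F the median log2 change from LT-HSC to MkP was -0.79, with 46 negative, and the MkP libraries were all below for 25 genes and above for 0 (24.5% and 17% of all genes). These LT-HSC libraries come from male mice and the MkP libraries from female mice, so population and sex cannot be told apart here. The next smallest adjusted p values after Ifitm1 were those of Oasl2 (149, 142 and 143 CPM and 36.7, 48.5 and 55.98 CPM, adjusted p = 0.176), Irf9 (162, 172 and 189.7 CPM and 68.8, 81.2 and 97.1 CPM, adjusted p = 0.185) and Ifit3 (6.22, 15.2 and 7.21 CPM and 1.203, 0.739 and 2.13 CPM, adjusted p = 0.194). All 3 had separate populations and none passed. The call of Ifitm1 was lost without LT-HSC number 6 or 7 or MkP number 1 or 2. On the 2 V617F groups alone 21 genes were lower, and DESeq2 called 6.

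**Figure D5:**
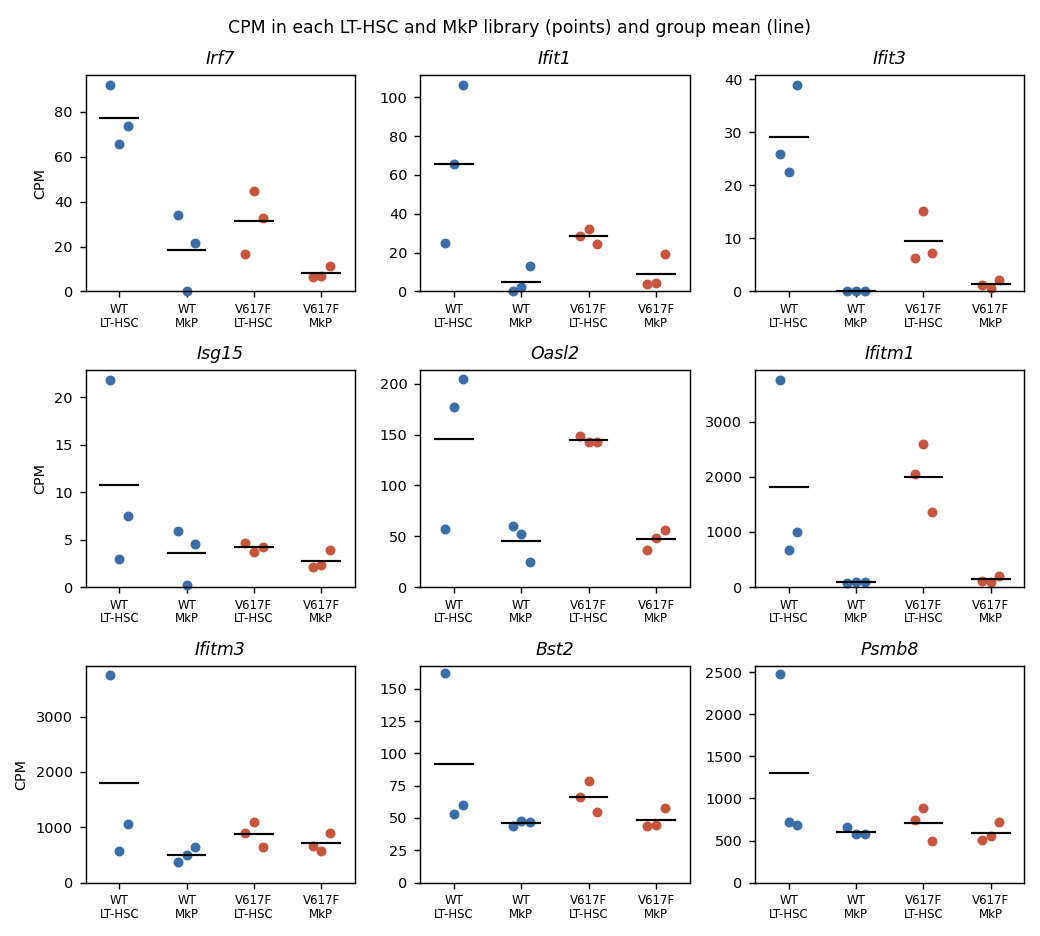
Level in CPM of 9 interferon response genes in each LT-HSC and MkP library, on linear axes from 0. Points are libraries (blue WT, red V617F) and lines are group means. Ifitm1 is low in MkP of both genotypes, Ifit3 is at 0 in the 3 WT MkP libraries, and WT LT-HSC number 30 is the high point for Ifitm1, Ifitm3, Bst2 and Psmb8.

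The genotype change differed between MkP and LT-HSC for 1 gene, Ifit3 (edgeR, adjusted p = 0.0153), where 0.427% of all genes had a more positive and 0.028% a more negative change in MkP. In LT-HSC its V617F mean was 0.328 times the WT mean, and in MkP the V617F level was above a WT level of 0, so the ratio of the 2 ratios was at least 50.0 at the floor. The call was lost when any 1 of the 6 V617F libraries was left out. The V617F LT-HSC libraries come from male mice and those of the other groups compared from female mice. The part of sex in this difference cannot be told apart.

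The genes around the pathway give the context. Of 21 interferon genes in the table, 12 had no count in any library and 1, Ifnz, passed the filter on low counts, so the ligands themselves were hardly seen in these cells. The receptor genes fell with CD41: 3 of 5 tested were lower in WT and 5 of 5 in V617F (18.2% and 17.9% of all genes), among them Ifnar1 (log2 -0.67 in WT and -0.87 in V617F) and Ifngr2 (-1.35 and -1.25). Among the receptor kinases and STATs, Jak1 (log2 -0.68 and -0.62), Stat2 (-0.62 and -0.79) and Stat3 (-0.90 and -0.83) were lower in both genotypes. Of 12 tested sensors and factors upstream of interferon, 7 were lower and 1 higher in WT, and 6 and 1 in V617F, where 15.7% of all genes were higher in WT and 16.4% in V617F. The gene of the DNA-sensing adaptor STING, Tmem173, fell by log2 1.27 and 1.70 (adjusted p = 0.000192 and 7.00e-06), whereas Mb21d1, which encodes the enzyme cGAS that feeds it, rose (log2 0.68 and 0.48). Among 9 inhibitors, 3 were lower and 1 higher in WT and 4 lower and 1 higher in V617F, where Socs3, a feedback inhibitor of cytokine receptors, fell by log2 1.61. The phosphatase gene Ptpn11 was the inhibitor that rose in both genotypes.

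Further families of interferon-induced genes were listed beside the 49. Of 7 immunity-related GTPases, which act on vacuoles that hold pathogens, 5 were lower in the CD41-positive fraction in WT and 6 in V617F, against the 18.2% and 17.9% of all genes, and 4 were lower in WT MkP than in WT LT-HSC (6.58% of all genes). Of 6 tested IFI200 genes, DNA-binding proteins of the nucleus and cytosol, 5 were lower in the CD41-positive fraction of V617F, with Aim2 at log2 -1.06. In WT 0 of the 6 were called (edgeR, with 0 at an unadjusted p under 0.05, and 0 called by DESeq2), but all 6 had a negative log2 change there (median -0.37). The difference between the genotypes was called for 0 of the 6, with 0 at an unadjusted p under 0.05. A fall particular to V617F is therefore not shown. Of 10 other genes of class I presentation, 2 rose and 2 fell in the CD41-positive fraction of V617F (16.4% and 17.9% of all genes). Psmb10 and Psme2 rose (log2 0.33 and 0.43), while Nlrc5, the activator of these genes, and Erap1 fell (log2 -0.52 and -0.46). In WT 0 rose and 2 fell, Nlrc5 (log2 -0.98) and the peptide-loading gene Tapbp (-1.23). Between genotypes, Stat2 (log2 -0.44), Nlrc5 (-0.68), Tapbp (-0.94), the adaptor gene Ticam1 (-0.79), the RNA-editing enzyme gene Adar (-0.52) and the GTPase gene Tgtp2 (-0.71) were lower in V617F CD41-negative HSC, where 7.94% of all genes were lower. By list these include 1 of 12 upstream sensors and factors, 1 of 9 inhibitors, 1 of 7 immunity-related GTPases and 2 of 10 class I genes. Whether these calls hold with single libraries left out was not tested. In MkP, Socs3 was higher in V617F (adjusted p = 0.03801), where 1.62% of all genes were, and was listed at 0 in the 3 WT libraries.

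Over the 10 comparisons, 34 of the 49 genes passed the test at least once. The 15 that never did were Bst2, Eif2ak2, Herc6, Ifi27, Ifi35, Ifih1, Ifitm3, Isg15, Oas1a, Parp12, Psmb8, Psmb9, Trim25, Usp18 and Xaf1. Their log2 changes between the V617F fractions, the comparison with the most calls, ran from -0.49 (Xaf1) to 0.37 (Psmb9).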

How the data were processed

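Gene counts for 23 RNA-seq libraries were deposited by the authors as whole-number counts per gene. The submitters' processing notes name STAR 2.5.2a, R 3.4.2 and limma. The counting tool, annotation and strand setting are not given in the sources used here. Antisense partners and near-identical copies cannot be told apart.

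The 49 genes, their roles and the lists around them were chosen with earlier results of these data known. Counts were fitted in R 4.3.3 with edgeR 4.0.16 (TMM, filterByExpr, quasi-likelihood F test, 1 mean per group, Benjamini-Hochberg adjustment) in 1 fit per protocol, on 14467 genes (SMART-Seq v4) and 14281 genes (SMART-Seq v2). A gene is called at an adjusted p under 0.05. CPM use TMM-scaled totals of the tested genes, and RPKM also use the deposited gene length. Standard errors are the log2 change divided by the square root of F. Folds against a group at 0 use a floor of 3 counts per library and cover counting error only.

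Genes were named by a rule: in each comparison every called gene, or the 12 of smallest adjusted p where more were called, or the 4 smallest where fewer than 4 were, plus a set spanning the roles. V617F libraries of the same number in the 2 CD41 fractions deviated together (residual correlations 0.301, 0.419 and 0.298), so a fit with the number as a block was run as an alternative. The main fit, which gave the SE and p-values quoted for each gene, does not use this pairing. Alternatives were DESeq2 1.42.0, RLE scaling, no filter, only the groups compared, libraries labelled male omitted, the replicate block and each library left out. One gene of the pathway lists is not reported here.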

Additional observations from a re-analysis of the deposited data

Results flagged for a closer look

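The change from WT to V617F in Ifit3 differed between MkP and LT-HSC by a test of the difference itself (edgeR, adjusted p = 0.0153). In LT-HSC the V617F mean was 0.328 times the WT mean, while in MkP all 3 WT libraries were listed at 0 and all 3 V617F libraries had counts. The difference was not called when any 1 of the 6 V617F libraries was left out. Among the groups compared only V617F LT-HSC come from male mice, and the part of sex cannot be told apart.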

How the results depend on the processing

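No called value changed direction under any alternative that was run. The counts of genes called moved by over 1.5 times as follows. Where brackets hold 2 shares, the first is of these genes and the second of all genes called in that fit. In V617F against WT CD41-negative HSC (4 called) DESeq2 called 9 (18.4% against 22.2%), the 2 groups alone 0, and the fit without male libraries 0. Single libraries left out gave 0 to 17 (34.7% against 41.8% for the 17). In CD41-positive HSC (3 called) DESeq2 called 10 (20.4% against 2.89%), no filter 6 (12.2% against 1.39%) and the 2 groups alone 14 (28.6% against 3.78%). The fit without male libraries called 0, and single libraries left out gave 0 to 1. Between the CD41 fractions of WT (11 called) the 2 groups alone gave 6 (12.2% against 14.4%). Single libraries left out gave 2 (4.08% against 8.18%) to 15 (30.6% against 49.2%). The replicate block gave 23 there, 21 lower and 2 higher, or 46.9% of the 49 against 33.0% of all genes. The labels do not say whether WT libraries of the same number share a mouse. Their residual correlations (0.0429 and 0.0242) cannot decide it, because the residuals of only 2 CD41-positive libraries mirror each other. The block changed no call count by over 1.5 times elsewhere. It gave 10 (20.4% against 15.4%) for WT MkP against LT-HSC, where 7 were called without it. It gave 32 (65.3% against 39.9%) for the V617F fractions, and 0 and 1 for the differences of genotype changes. For V617F against WT in LT-HSC DESeq2 called 1 (2.17% against 4.28%). In MkP it called 4 (8.70% against 9.31%), and the 2 groups alone gave 2 (4.26% against 5.91%). Single libraries left out gave 1 to 3 there (6.12% against 2.19% for the 3). For MkP against LT-HSC in WT DESeq2 called 19, the 2 groups alone 0, and single libraries left out 5 to 13. In V617F these were 6, 21 and 0 to 1. For the differences of genotype changes, single libraries left out gave 0 to 12 in the CD41 fractions (24.5% against 12.3% for the 12). Between MkP and LT-HSC they gave 0 to 2 (4.08% against 0.794% for the 2), and DESeq2 called 2 (4.35% against 4.26%). The cause of each move was not tested. With 2 or 3 libraries per group and one spread shared over all groups of a protocol, falls of sparse genes such as Mx1, Ifit3 and Cxcl10 rest on few counts.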
